A study of Mus musculus with 4 samples.

Results

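Regions of H3K27ac that lay in the transcribed part of a gene outside introns, or at its end, were compared between NOD and B6 embryonic stem (ES) cells. A region was taken when the detailed annotation in the deposited file placed its centre in a coding exon, a 5' UTR, a 3' UTR, an exon of a non-coding RNA, or at a transcription termination site (TTS), a window that the annotation program HOMER draws from 100 bp before to 1000 bp after the annotated end of a transcript. This gave 780 of 11651 H3K27ac regions, namely 363 of 5525 regions (6.57%, 95% interval 5.95 to 7.25) in the B6 list and 417 of 6126 regions (6.81%, 6.20 to 7.46) in the NOD list.

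Both lists came from chromatin immunoprecipitation with sequencing (ChIP-Seq) of ES cells that were derived from C57BL/6 (B6) or NOD embryos, NOD being the non-obese diabetic mouse, and cultured in 2i, a medium that holds inhibitors of MEK and GSK3. A library of H3K27ac and a library of H3K4me3 were made from each strain, which makes 4 libraries and 1 per strain and mark. There were no replicates, so no test between strains could be made, and all intervals given here are 95% intervals that cover counting error only. A cell line of 1 strain may also carry features of its own derivation, which cannot be told apart from the strain. The lists hold regions that differ between the strains, so the cell type could not be checked at marker genes that both strains express.

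Each H3K27ac list was called against the library of the other strain, to take regions with more H3K27ac in the strain of the list. The 2 lists are not fully separate, since 4 of the NOD regions described here had a score below 0 and regions of both lists overlapped in 3 host genes. Among the other H3K27ac regions, 14 of the NOD list and 8 of the B6 list also had a score below 0. The score of a region is a difference, the signal in the strain of the list less the signal in the opposite strain. Its scale is not stated, and only the difference was given, not the signal of each library. For H3K4me3 the B6 library had 14791364 tags and the NOD library 22750449, while for H3K27ac the depth is unknown. Positions are in the mouse genome mm10, whose sequence is that of the C57BL/6J strain, so the sequences printed here do not show changes carried by NOD.

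Acetylation of lysine 27 of histone H3 is placed by the acetyltransferases p300 and CBP on nucleosomes at active promoters and enhancers. At an active gene the mark usually flanks the start site and runs into the first exon, while an enhancer may lie in an intron, between genes, or in or behind the exons of another gene. H3K4me3 marks promoters, and in mammals most housekeeping promoters lie in CpG islands, stretches in which the dinucleotide CG has not been depleted. The annotation class comes from the centre of a region alone, and HOMER assigns the window from 1000 bp before to 100 bp after a transcription start site (TSS) to the promoter, so a first exon or a 5' UTR is named here only for centres further downstream.

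Sequences at the centres of some high-scoring 5' UTR regions of each list are shown first, since the CpG content of these regions differed between the lists. Such short runs vary, and that of Brd3 in the NOD list, which is not printed, held 0 CG. Each run holds 30 bases on the strand of the gene, 5′ to 3′, with every CG in capitals.
Naa40, NOD list, chr19:7241016-7241045, minus strand: ggcCGgcCGcttCGctgtCGctCGggttcc
Tbc1d9, NOD list, chr8:83165811-83165840, plus strand: CGccctgCGgtgggcagggcCGggctgCGa
Tep1, B6 list, chr14:50870433-50870462, minus strand: agaaccaaCGCGcctctcattgCGcacagc
E2f2, B6 list, chr4:136172439-136172468, plus strand: acaggacacccttCGCGggtcagagcacac

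The centres of the highest-scoring 3' UTR and TTS regions are given for the top region of each list in the same way.
Top3a, B6 list, 3' UTR, chr11:60740345-60740374, minus strand: tctggctggctctgctggatgctgcagctc
Setmar, B6 list, TTS, chr6:108077160-108077189, plus strand: atgaattcagaaggatggctgttaagttta
Prnp, NOD list, 3' UTR, chr2:131937393-131937422, plus strand: gtctgtcatcagccagtgctaacacCGggc
Slc37a1, NOD list, TTS, chr17:31351142-31351171, plus strand: cttgctcctgctagcttctcttttaCGtac
Over the 300 bp around the centre, the observed over expected CpG ratio was 0.0498 for Top3a, 0.234 for Setmar, 0.0612 for Prnp and 0.385 for Slc37a1. At the 5' UTR regions it was 1.10 for Naa40, 0.873 for Brd3, 0.960 for Tbc1d9, 0.544 for Tep1 and 1.10 for E2f2.

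To find where in genes each strain held more H3K27ac, the regions were counted by class. Regions near the start of genes were mostly in the NOD list and regions near the end of genes were mostly in the B6 list. The 5' UTR class held 64 NOD and 19 B6 regions, so that 77.1% (67.0 to 84.8) were in the NOD list. For coding exons the counts were 186 and 105, a NOD share of 63.9% (58.3 to 69.2). The 3' UTR class held 46 NOD and 74 B6 regions, a NOD share of 38.3% (30.1 to 47.3), and the TTS class held 96 and 151, a NOD share of 38.9% (33.0 to 45.1). For all 11651 H3K27ac regions the NOD share was 52.6%, which lies outside the intervals of these 4 classes. Against the intron and intergenic regions outside repeats, of which 46.1% were in the NOD list, the TTS share was still lower beyond its interval, while the interval of the 3' UTR share held this value. The 39 regions in exons of non-coding RNAs had a NOD share of 64.1%, with an interval of 48.4 to 77.3 that holds the share of all regions, and 46.9% when classes were assigned anew from RefSeq. Over all members the shares balanced, with 53.5% (50.0 to 56.9) in the NOD list.

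**Figure D1:**
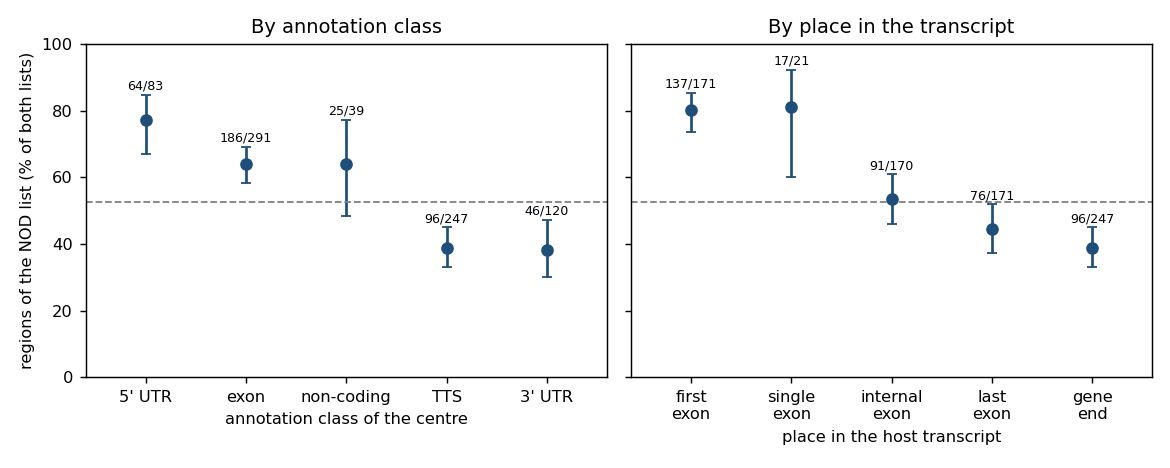
Share of regions in the NOD list (y axis, percent of the regions of both lists) by annotation class of the centre (left) and by place in the host transcript (right), with points for the share, bars for its 95% Wilson interval and the number of NOD regions over all regions printed above. The dashed line is the share over all H3K27ac regions, 52.6%, and the shares fall from 80.1% in first exons to 38.9% at gene ends.

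The same order was seen with the exon number that the file gives for each region. Of 171 regions centred in the first exon of a transcript with several exons, 137 were in the NOD list (80.1%, 73.5 to 85.4), and for the 21 regions in transcripts with 1 exon the share was 81.0% (60.0 to 92.3). It was 53.5% (46.0 to 60.9) in internal exons, 44.4% (37.2 to 51.9) in last exons, an interval that holds the 46.1% of intron and intergenic regions outside repeats, and 38.9% at gene ends. The coding-exon class was thus mixed, with a NOD share of 82.1% (73.2 to 88.5) for its 95 regions in first exons and of 52.2% (44.5 to 59.9) for its 157 regions in internal exons. Coding sequence in the last exon had a NOD share of 62.1% in 29 regions, and its interval of 44.0 to 77.3 holds the share of all regions.

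The first-exon share was also set beside that of regions at start sites, which were not matched to the same genes. H3K27ac regions in the promoter class, whose centres lie upstream of or at the TSS, had a NOD share of 60.7% (57.3 to 63.9) over 844 regions, which is below the interval of the first-exon regions. Of the exonic and gene-end regions, 184 of 417 in the NOD list (44.1%, 39.4 to 48.9) and 63 of 363 in the B6 list (17.4%, 13.8 to 21.6) were centred within 1000 bp of a TSS. The shares for all regions were 16.6% in the NOD list and 10.01% in the B6 list, so both lists exceeded their background and the NOD list did so to a greater degree. Within 1000 bp of a TSS, 74.5% (68.7 to 79.5) of the 247 exonic and gene-end regions were in the NOD list, against 63.0% (60.4 to 65.6) of 1325 other H3K27ac regions. Coding exons further than 1000 bp from a TSS had a NOD share of 52.9% (45.5 to 60.3), and only 7 of the 83 5' UTR regions lay that far. Over all classes the order turned further from a TSS, with 43.7% (39.6 to 48.0) of 533 regions against 51.1% (50.1 to 52.1) of 9546 other regions. Many other regions lie in repeats, and the NOD share of the 5750 intron and intergenic regions outside repeats was 46.1% (44.8 to 47.4), inside the interval of the exonic and gene-end regions.

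**Figure D2:**
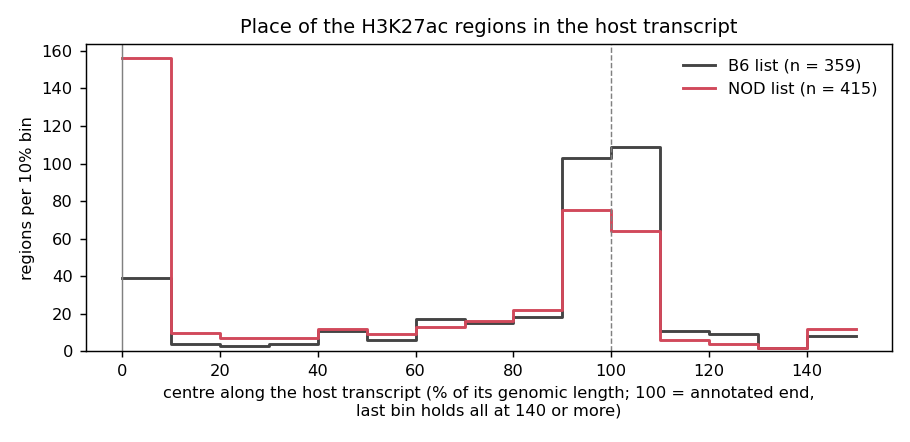
Number of H3K27ac regions (y axis) per 10% of the genomic length of the host transcript (x axis, 0 at the TSS and 100 at the annotated end), for 359 B6 and 415 NOD regions with a placed host transcript. The NOD list holds 156 regions in the first bin against 39 in the B6 list, and the B6 list holds more regions around the annotated end.

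Of the 780 host transcripts, 774 could be placed in the RefSeq annotation of the same build, and the place of each centre along the transcript was computed from it. In the NOD list 156 of 415 placed regions (37.6%, 33.1 to 42.3) lay in the first 10% of the transcript, and in the B6 list 39 of 359 (10.9%, 8.05 to 14.5). The last 10% of the transcript held 76 NOD regions (18.3%, 14.9 to 22.3) and 103 B6 regions (28.7%, 24.3 to 33.6). A further 88 NOD regions and 139 B6 regions were centred beyond the annotated end. The median distance of the centre from the TSS of the host transcript was 4.91 kb in the NOD list and 17.7 kb in the B6 list.

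The NOD share also varied between chromosomes, and its interval left out the 52.6% of all regions on chromosomes 6, 8, 13 and 14. On chromosome 6 there were 8 NOD and 40 B6 regions, a NOD share of 16.7% (8.70 to 29.6), and the other H3K27ac regions of that chromosome had a NOD share of 36.3%. On chromosome 8 there were 41 NOD and 13 B6 regions, a share of 75.9% (63.1 to 85.4), and 62.5% for the other regions. Chromosome 14 had a share of 71.9% (54.6 to 84.4), against 51.5% for its other regions, and chromosome 13 had 69.7% (52.7 to 82.6), against 54.7%. The 17 autosomes other than 6 and 8 ranged from 37.5% on chromosome 15 to that of chromosome 14, with a median of 55.6%. The X chromosome held 9 regions of each list (29.0 to 71.0), and 70.6% of its other regions were in the NOD list. Without chromosomes 6, 8 and X the NOD share was 79.2% for 5' UTRs, 66.1% for coding exons, 38.6% for 3' UTRs and 38.4% for TTS regions, so the order of the classes did not rest on these 3 chromosomes.

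Differences in the score were then described. The median score was 11.4 (11.0 to 12.0) for the 363 B6 regions and 10.9 (10.4 to 11.7) for the 417 NOD regions, below the medians of 12.9 and 13.2 for the other H3K27ac regions of the same lists. The classes had similar medians within a list, from 11.1 for coding exons to 13.9 for non-coding exons in B6, and from 10.5 for coding exons to 14.4 for non-coding exons in NOD. These regions were also short. The shortest region of a list measured 262 bp in B6 and 233 bp in NOD, and 57.3% of the B6 regions and 52.0% of the NOD regions had exactly this width, against 50.1% and 46.8% of the other regions. Together they made up 5.47% of the summed positive score of the B6 list and 3.87% of that of the NOD list. Among the other H3K27ac regions, 14 of 5709 in the NOD list and 8 of 5162 in the B6 list had a score below 0. Of the regions described here, 0 of 363 in the B6 list did so. In 4 of the 417 of the NOD list the score was below 0, which means that the deposited signal was higher in B6. They lay at Akirin2, which encodes a nuclear factor of transcription control, with -24.5, at Prc1, a gene of cytokinesis, with -5.97, at Rpusd2 with -2.33 and at Qk, an RNA-binding protein gene, with -1.80.

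Super enhancers are stretches of unusually strong H3K27ac, and a region was marked as one when its score lay on the steep part of the ranked score curve. In the B6 list 21 of the 363 regions (5.79%, 3.81 to 8.68) carried this mark, against 7.06% of the whole list. In the NOD list 11 of 417 (2.64%, 1.48 to 4.66) did so, against 8.16% of the whole list. No 5' UTR region and 1 coding-exon region of the NOD list was among them, and the remaining 10 were 4 regions in 3' UTRs and 6 at gene ends. Of the 21 in B6, 9 were at gene ends, 5 in 3' UTRs, 5 in coding exons, 1 in a 5' UTR and 1 in a non-coding exon.

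**Figure D3:**
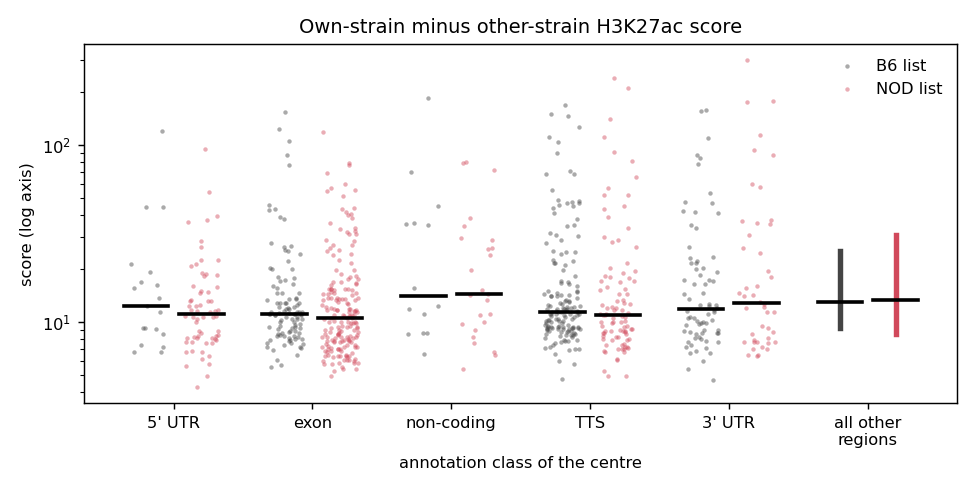
Score of each region (y axis, log scale, own-strain minus other-strain H3K27ac signal, unit not stated in the files) by annotation class, with black lines at the medians and, for all other regions, bars from the first to the third quartile. The 4 NOD regions with a score below 0 cannot be shown on this axis. The classes overlap over most of their range, and the highest scores of the NOD list are a 3' UTR region at 300.6 and a TTS region at 237.8.

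The 5' UTR regions with the highest scores in the NOD list were at Naa40, Brd3 and Tbc1d9. Naa40, an N-terminal acetyltransferase of histones H4 and H2A, had a region of 11340 bp with a score of 94.3, centred 0.192 kb behind the TSS. Brd3, a bromodomain protein that binds acetylated histones, had a score of 53.8 and its centre 0.188 kb behind the TSS. Tbc1d9, a gene of the family of Rab GTPase-activating proteins, had a score of 39.6. In the B6 list, high-scoring 5' UTR regions were at Tep1, a component of telomerase and vault particles, with a score of 44.4, and at E2f2, a transcription factor of the cell cycle, with 44.3. The Naa40 and E2f2 regions each spanned over 11 kb, so their class describes the centre and not the whole region.

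The strongest coding-exon regions were mostly in the body of genes. In B6 they were at Rinl in exon 8 of 12 with a score of 153.0, at Tmem91 in exon 3 of 4 with 123.4, and at Tead2, a transcription factor of the Hippo pathway, in exon 11 of 12 with 105.6. The Tead2 region had its nearest TSS, 6.63 kb away, at another gene, Cd37. In NOD they were at Tmem41b, an endoplasmic reticulum protein of autophagy, in exon 5 of 7 with 118.8, and at Ankrd13a in exon 13 of 15 with 78.7. The third was at Wdr7 with 77.4. None of these 6 regions was in a first exon, although first exons made up 78 of the 186 coding-exon regions of NOD.

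At gene ends the highest scores of B6 belonged to Setmar, a histone methyltransferase gene, with 167.9, to Anxa6, a calcium-dependent membrane-binding protein, with 149.0, and to Gdf5, a secreted ligand of the BMP family, with 145.1. For NOD they belonged to Slc37a1, a sugar phosphate transporter, with 237.8, to Msx2, a homeobox transcription factor, with 208.3, and to Kyat1, an enzyme of kynurenine metabolism, with 140.2. The nearest TSS was that of another gene at Anxa6 (Tnip1), Slc37a1 (Pde9a, 35.1 kb away) and Kyat1 (Spout1, 6.35 kb away). The 3 highest 3' UTR regions of NOD were at Prnp, the prion protein gene, with 300.6, at Commd7 with 177.2, and at Glod4 with 175.4. Those of B6 were at Top3a, a DNA topoisomerase, with 157.7, at Gabrp, a GABA receptor subunit, with 156.1, and at Lamc1, a laminin chain, with 109.1. Among non-coding RNAs the top regions were 4921529L05Rik with 184.8 and Gm16938 with 70.2 in B6, and 6030443J06Rik with 80.0, A630072M18Rik with 78.7 and Fhitos with 72.4 in NOD.

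For regions behind a gene, the annotated host need not be the gene with the nearest start. At TTS regions the nearest TSS belonged to another gene in 86 of 148 placed B6 regions (58.1%) and in 42 of 96 NOD regions (43.8%). In the 3' UTR class it did so in 41 of 74 B6 regions (55.4%) and 28 of 46 NOD regions (60.9%). The TTS centres lay a median of 620 bp beyond the annotated end in B6, with quartiles at 279.8 and 845 bp, and of 378 bp in NOD, with quartiles at 179 and 678 bp. The poly(A) signal AATAAA, which directs cleavage of the transcript, is shown here in capitals at the annotated end of the 3 top TTS hosts in which it was found.
Setmar, B6 list, chr6:108077090-108077119, plus strand: agtcttgccggcAATAAAgctgtcttctat
Slc37a1, NOD list, chr17:31350666-31350695, plus strand: tctgctctttgaAATAAAtgagtttttatt
Kyat1, NOD list, chr2:30185136-30185165, minus strand: gctactgttcctAATAAAgttttaagttat
Within the 300 bp around the TTS centres it was present on the strand of the gene in 14.9% (10.03 to 21.5) of the B6 regions and 15.6% (9.70 to 24.2) of the NOD regions. On the other strand the shares were 10.1% (6.24 to 16.05) and 14.6% (8.89 to 23.0), so the intervals overlapped between strands and between lists. Most TTS centres lay further past the annotated end than this window reaches. It therefore seldom could hold the host's own signal, and these shares cannot show whether the lists or strands differ in it.

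To describe the sequence at these regions, CpG ratio and GC content were taken over 300 bp around each centre. In the NOD list the median CpG ratio was 0.941 (0.897 to 0.993) for 5' UTRs and 0.618 (0.510 to 0.770) for coding exons. In the B6 list it was 0.556 (0.408 to 0.844) for 5' UTRs and 0.316 (0.278 to 0.397) for coding exons, and in both classes the intervals of the 2 lists did not overlap. For 3' UTRs the medians were 0.232 (0.181 to 0.305) in NOD and 0.174 (0.131 to 0.229) in B6, and for TTS regions 0.235 (0.197 to 0.263) and 0.190 (0.163 to 0.223), with overlapping intervals. The other H3K27ac regions had medians of 0.203 in NOD and 0.192 in B6. The median GC content was higher in NOD at 5' UTRs, with 71.2% (69.0 to 73.3) against 55.7% (52.3 to 65.0) in B6. NOD coding exons had 57.8% (55.0 to 63.7) against 54.3% (52.3 to 56.7) for those of B6, with overlapping intervals. At the gene end the GC medians had the opposite order to the CpG ratio, with 44.0% (42.7 to 48.3) for NOD 3' UTRs against 48.3% (46.0 to 49.3) for those of B6, and 47.8% against 49.0% for TTS regions, and the intervals overlapped there too.

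**Figure D4:**
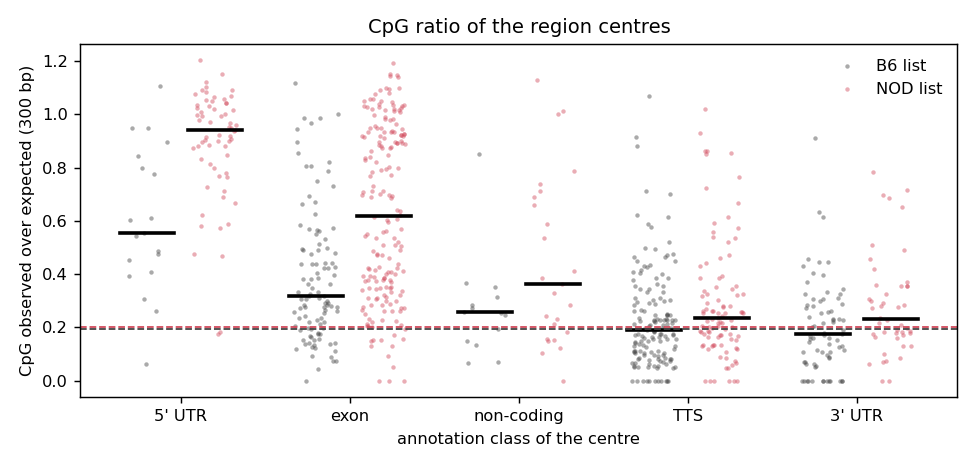
Observed over expected CpG ratio of the 300 bp around each region centre (y axis) by annotation class, 1 point per region, with black lines at the medians and dashed lines at the medians of the other H3K27ac regions of each list. NOD 5' UTR regions centre on 0.941 and B6 5' UTR regions on 0.556, while both gene-end classes lie near the dashed lines at 0.192 and 0.203.

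The difference held among first exons themselves. The 137 first-exon regions of NOD had a median CpG ratio of 0.927, with quartiles at 0.833 and 1.02, and the 34 of B6 had a median of 0.617, with quartiles at 0.439 and 0.852. Within 1000 bp of a TSS the medians were 0.907 for 184 NOD and 0.584 for 63 B6 regions, and other H3K27ac regions at the same distance had 0.644 and 0.488. Further from a TSS the medians were 0.271 in NOD and 0.206 in B6, against 0.176 and 0.178 for the other regions. Base composition can change the yield of a library, and its part in this difference was not tested.

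The NOD share was also read by CpG ratio. Of the 94 regions with a ratio of 0.1 or less, 26.6% (18.7 to 36.3) were in the NOD list, and of the 152 regions with a ratio over 0.8, 86.2% (79.8 to 90.8). Other H3K27ac regions went from 53.3% (51.5 to 55.2) to 76.7% (72.4 to 80.5) between the same bins. At the low end the intron and intergenic regions outside repeats had a NOD share of 47.7% (45.1 to 50.3), so CpG-poor exons and gene ends were in the B6 list more often than CpG-poor intron and intergenic regions. Of the 89 regions with a ratio of 0.1 or less that lay further than 1000 bp from a TSS, 26.97% (18.8 to 37.0) were in the NOD list.

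**Figure D5:**
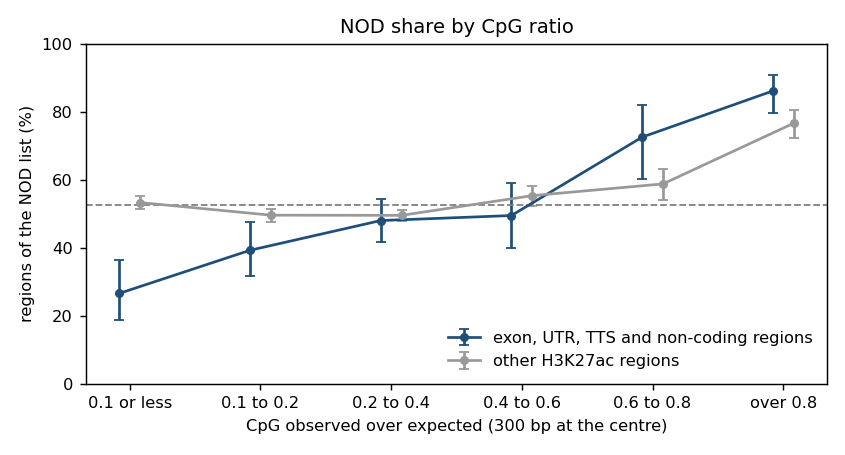
Share of regions in the NOD list (y axis, percent) in 6 bins of CpG ratio (x axis) for the 780 exonic and gene-end regions and for the 10871 other H3K27ac regions, with 95% Wilson intervals as bars and the share over all regions, 52.6%, as a dashed line. The exonic and gene-end regions run from 26.6% to 86.2% and the other regions from 53.3% to 76.7%.

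Motifs were searched on both strands of the same 300 bp windows, by letters alone. The GC box GGGCGG, bound by SP and KLF factors at many CpG island promoters, was present in 71.9% (59.9 to 81.4) of NOD and 47.4% (27.3 to 68.3) of B6 5' UTR regions, and in 37.1% (30.5 to 44.2) of NOD and 24.8% (17.5 to 33.8) of B6 coding-exon regions. Over all members it was found in 30.9% of NOD and 16.3% of B6 windows, against 11.9% and 8.92% of all H3K27ac windows of the lists. Further than 1000 bp from a TSS the shares were 6.44% (3.94 to 10.3) in NOD and 9.33% (6.54 to 13.2) in B6, against 5.42% and 6.23% of the other regions at that distance. The YY1 motif AAGATGGC, found at many housekeeping promoters, was present in 17 NOD windows (4.08%, 2.56 to 6.43) and 3 B6 windows (0.826%, 0.281 to 2.40), against 2.42% and 1.86% of all windows. In 500 bp windows the intervals overlapped, with 5.76% (3.90 to 8.42) in NOD and 3.03% (1.70 to 5.34) in B6. Further than 1000 bp from a TSS the shares were 2.15% in NOD and 0.333% in B6, against 2.20% and 1.93% of the other regions. YY1 was 1 of 12 motifs compared. The YY1 match at Brd3 is given with the motif in capitals.
Brd3, NOD list, chr2:27475169-27475198, plus strand: gtccccttcggAAGATGGCgggcagaggaa
Motifs of POU, SOX and ESRRB factors, which act at ES cell enhancers, were counted in the same way. Only the octamer was below the share of all windows beyond its interval, and the SOX and ESRRB shares were near it. The octamer ATTTGCAT of POU factors was in 3 windows of each list, against 2.44% of all B6 and 2.35% of all NOD windows. Its shares were 0.826% (0.281 to 2.40) in B6 and 0.719% (0.245 to 2.09) in NOD. The SOX motif CCATTGTT was in 6 B6 and 7 NOD windows (1.65% and 1.68%), against 1.59% and 1.49%. The ESRRB motif AAGGTCA was in 25 B6 windows (6.89%, 4.71 to 9.97) and 21 NOD windows (5.04%, 3.32 to 7.58), against 8.76% and 6.68% of all windows. Matches were present at 2 high-scoring B6 regions, a SOX motif at the TTS region of Gdf5 and an ESRRB motif at the 3' UTR region of Top3a.
Gdf5, chr2:155939977-155940006, plus strand: ataagatctgcCCATTGTTgggcagggatc
Top3a, chr11:60740251-60740280, plus strand: gaaggccactcAAGGTCAgttctgcttaca
The KLF motif GGGNGTGG was in 15 of 74 B6 3' UTR windows (20.3%, 12.7 to 30.8) and 1 of 46 NOD 3' UTR windows (2.17%, 0.385 to 11.3), against 13.9% and 10.3% of all windows, and this was 1 of 12 motifs compared in 5 classes. The AP-1 motif TGANTCA was in 9.09% of B6 and 6.24% of NOD members, against 10.6% and 9.84% of all windows. The E-box CACGTG, the ETS motif CCGGAAGT, the CREB motif TGACGTCA, the NFY motif CCAATCA and the STAT motif TTCCNGGAA were each found in under 5% of the members of either list.

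Then H3K4me3 was examined at the same places, a mark that played no part in choosing the regions. Its lists were also called in each strain against the other. In NOD, 30 of 417 regions (7.19%, 5.09 to 10.1) overlapped an H3K4me3 region of the NOD list, against 9.84% of all NOD H3K27ac regions. In B6, 18 of 363 regions (4.96%, 3.16 to 7.70) overlapped one of the B6 list, against 4.65%. Overlaps with the list of the opposite strain were seen for 11 B6 regions (3.03%, 1.70 to 5.34; 1.92% of all B6 H3K27ac regions) and for 3 NOD regions (0.719%, 0.245 to 2.09; 0.702% of all NOD regions). These shares were thus near the background of each list. In first exons, 4 of 137 NOD regions (2.92%, 1.14 to 7.27) overlapped H3K4me3 of the same list, while 10.3% (7.02 to 14.9) of the 233 NOD regions further than 1000 bp from a TSS did so. Other NOD H3K27ac regions had the same order, with 5.03% (3.74 to 6.73) within 1000 bp of a TSS and 10.9% (10.1 to 11.8) further away.

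Tags could be read in both strains at these overlaps, and a count of 0 tags allows up to 3. Behind Msx2 an H3K4me3 region at chr13:53465135-53466068 held 73 tags in NOD and 0 in B6, and a neighbour at chr13:53461983-53463395 held 111 and 14. At the end of Zim3, an imprinted gene, 73 NOD tags faced 0 B6 tags. In Cst3, which encodes the protease inhibitor cystatin C, a first-exon region with a score of 69.2 overlapped 21 NOD and 0 B6 tags. At Kyat1 the numbers were 412 and 35, and at Slc37a1 they were 59 and 1. For B6, the wide TTS region of Tspo2 (8573 bp) overlapped H3K4me3 at chr17:48450842-48451742, with 63 tags in B6 and 1 in NOD. That of Kiss1 (9002 bp), the gene of kisspeptin, overlapped H3K4me3 at chr1:133326678-133327178, with 15 and 0. Both H3K4me3 regions lay away from the annotated gene ends. At the non-coding RNA E330020D12Rik the tags were 352 and 41. The NOD library was 1.54 times as deep, so equal tag numbers are not equal levels.
Several genes carried the 2 marks in opposite lists. The 5' UTR region of Kdm5c, an X-linked gene of an H3K4 demethylase, was in the NOD list of H3K27ac and overlapped an H3K4me3 region of the B6 list, with 30 B6 tags and 9 NOD tags. At the end of Kiss1 the B6 region of 125.5 also overlapped an H3K4me3 region of the NOD list, with 113 NOD and 15 B6 tags. Cox14 (40 NOD tags, 4 B6 tags), Gcnt3 (24 and 3) and Dalrd3 (52 and 3) were further B6 H3K27ac regions over H3K4me3 of the NOD list. These H3K27ac regions were wide, with 8992, 17681 and 10172 bp, and an overlap of 1 bp was enough. The 2 marks need therefore not lie at the same site, and at Dalrd3 the H3K4me3 region met only the edge of the H3K27ac region.

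Host genes were compared between the lists. The regions lay in 750 host genes, and 17 genes had a region in each list, which is 4.17% of 408 NOD hosts and 4.74% of 359 B6 hosts. In 8 of the 17 the NOD region was nearer the TSS and in 9 the B6 region was, and in 3 the regions overlapped, so the order seen across genes was not seen within this small set. The 5 with the highest summed score were Dalrd3, Taf8, Otud7b, Ppp1r8 and Kdm5c. In Otud7b, a deubiquitinase gene, the NOD region was in the 5' UTR, 0.292 kb behind the TSS, with a score of 7.55, and the B6 region in the 3' UTR, 56.3 kb behind the TSS, with a score of 33.8. In Kdm5c the NOD region was in the 5' UTR with a score of 22.3, and the B6 region in exon 25 of 26 with 8.26. In Ppp1r8, a regulator of protein phosphatase 1, the NOD region was in exon 4 of 7 with a score of 25.6 and the B6 region in the 3' UTR with 9.84. In Taf8, a subunit of TFIID, both regions were in the 3' UTR, with 35.7 in NOD and 6.82 in B6, and those of Dalrd3 were both behind the gene end, with 8.22 in NOD and 45.2 in B6.
The region centres of Otud7b and Ppp1r8 are shown on the strand of the gene with every CG in capitals.
Otud7b, NOD list, 5' UTR, chr3:96104805-96104834, plus strand: cCGagagtCGCGagggtaaCGgagacccca
Otud7b, B6 list, 3' UTR, chr3:96160801-96160830, plus strand: cacacctgttcctaagctgttccttactac
Ppp1r8, NOD list, exon 4, chr4:132833026-132833055, minus strand: gattctaCGgtctcatttggCGCGtccaCG
Ppp1r8, B6 list, 3' UTR, chr4:132827541-132827570, minus strand: gaggcatctggagcaatgagagggtagagc
The CpG ratio over 300 bp was 0.848 and 0.189 at the NOD and B6 regions of Otud7b, 0.549 and 0.333 at those of Ppp1r8, 0.765 and 0.093 at those of Kdm5c, 0.185 and 0.162 at those of Taf8, and 0.260 and 0.265 at those of Dalrd3.

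Lists of genes chosen by symbol were counted among the hosts, with 378 NOD and 328 B6 hosts among 21000 protein-coding genes of the annotation as the background. Ribosomal protein genes, mitochondrial ones included, had regions in 4 NOD and 2 B6 hosts of 179 genes. The 4 in NOD were all first exons, namely Rpl34 with a score of 18.4, Mrps9 with 13.5, Mrps31 with 11.9 and Mrps10 with 6.42, and the 2 in B6 were at the 3' end, namely Mrpl57 with 11.5 and Rpl22l1 with 6.90. Among all members, first exons held 32.9% of NOD and 9.37% of B6 regions. Last exons held 26.2% of the B6 regions and gene ends 41.6%. Of 143 chromatin modifier genes, 8 had a region in NOD and 4 in B6. Those of NOD were in first exons for Brd3, Chd1, Kdm5c and Kdm7a and at gene ends for Sirt6 (45.0) and Sirt1 (10.9), with Brd7 and Smarcc1 in internal exons. Those of B6 were in internal exons for Kdm5c, Smarcc1 (10.3) and Atrx (9.38) and in the 3' UTR for Kdm5a (6.00).
Zinc finger genes by symbol had 13 NOD and 6 B6 hosts of 465. In NOD 3 were in first exons and 8 in last exons or at gene ends, and in B6 these counts were 2 and 4. The highest scores were 27.1 in the last exon of Zfp763 in NOD and 21.3 in the 5' UTR of Zfp260 in B6. Of 46 pluripotency genes none had a region in NOD and 3 had one in B6, at the end of Nodal, a TGF-beta ligand, with 24.8, in an internal exon of Prdm14, a repressor that guards naive pluripotency, with 11.3, and in the 3' UTR of Il6st, the receptor subunit gp130, with 7.13.
Of 514 MHC and immune genes, 5 had a region in NOD and 6 in B6, and 10 of these 11 lay in a last exon or at the gene end. Among all members, last exons held 26.2% of B6 and 18.2% of NOD regions, and gene ends held 41.6% and 23.0%. Whether the immune genes depart from this mix of places was not tested. In NOD the immune hosts were Tnfrsf19 (36.8, in the 5' UTR), Tnfrsf1b (11.9), Ccr7 (8.34), Il17rd (7.89) and Cd22 (6.76). In B6 they included Tnfaip6 (68.0), Ifi35 (24.8), Tnfrsf22 (23.1) and Il6st. No host had a symbol that begins with H2-, and hosts were not sorted by whether they lie in the MHC region of chromosome 17. Cell cycle and DNA repair genes had 6 NOD and 9 B6 hosts of 174, with the highest scores at Rad1 (77.7) and Rad54l2 (46.7) in B6 and at Cdk13 (33.4) in NOD. Of these hosts, 2 in NOD and 1 in B6 were in first exons, and 0 and 4 in last exons or at gene ends. RNA-binding and splicing factors had 6 NOD and 7 B6 hosts of 195, with 1 and 1 in first exons and 4 and 3 in last exons or at gene ends. Translation factors had 1 and 1 of 74. The histone list took older symbols only and covered 13 genes, with H2af-ps2 as a NOD host, and the 113 homeobox genes listed had none, Msx2 not being on that list. With so few hosts per list, these counts are a description.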

How the data were processed

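ES cells of B6 and NOD were profiled by ChIP-Seq with antibodies against H3K27ac and H3K4me3, 1 library per strain and mark, grouped by the sample labels. The methods name bowtie2, with mm10 as the genome, and HOMER. The submitters' processing notes also list mm9, CASAVA 1.8.2 and STAR 2.2.0c, whose role is not stated. The file headers name mm10, and all regions end within the chromosome lengths of that build.

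For H3K27ac, the deposited score is own-strain minus other-strain signal from the super enhancer mode of HOMER, followed by annotation. The next deposited column, a score of slope, was used to mark super enhancers at 1 or more and a score above 0, with the 5 top regions of each list included. For H3K4me3, the authors deposited tag counts per region, a normalised signal and a fold, the ratio to the other strain. NOD counts, which the authors scaled to the B6 library, were turned back into whole tags with the header totals.

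Classes came from the detailed annotation column. Shares have 95% Wilson intervals and medians order-statistic intervals. Overlap needed at least 1 bp. Host transcripts, exon places and sequence came from RefSeq GRCm38.p6, the same build as mm10, in which 775 of 780 host accessions were found. Regions named in the text are the 3 highest-scoring per class and list, the 5 highest-scoring genes with regions in both lists, and hosts of the gene lists; others were named after their values were seen. Some regions that this rule takes are not reported here. Counting functions were tested on simulated data. Python 3.11.15, pandas 2.3.3, scipy 1.17.1 and pysam were used. Members and gene lists were chosen with earlier results of these data known. Other class columns, gene models, score, width, chromosome and distance limits were tried as alternatives.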

Additional observations from a re-analysis of the deposited data

How the results depend on the processing

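Each value was computed again with 1 choice changed at a time, and a value was taken as moved when it left the 95% interval of its main value. Of 68 alternatives to the main results, 47 stayed inside. The choice that mattered most was distance from a TSS. Without regions centred within 1000 bp of one, the NOD share was 43.7% for all members, 52.9% for coding exons and 57.1% for the 7 remaining 5' UTR regions, the median CpG ratio was 0.206 in B6 and 0.271 in NOD, the GC box share was 9.33% in B6 and 6.44% in NOD, the latter below the 11.9% of all NOD windows and above the 5.42% of other NOD regions at that distance, and the NOD overlap with H3K4me3 was 10.3%. The NOD share of 3' UTR and TTS regions stayed inside its interval under all 6 alternatives. With classes assigned anew from RefSeq, 750 of 780 members kept their class and the non-coding NOD share was 46.9%. The basic annotation column gave the same members.

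The ratio of the median score of members to that of other regions, 0.884 in B6 and 0.826 in NOD, was 0.974 and 0.981 per kb of width, 0.965 and 0.927 for regions under 1000 bp, and 0.840 and 0.696 for scores of at least 10, where the width ratio of B6 was 0.839. With the centre inside the H3K4me3 region the overlap was 2.48% in B6 and 4.08% in NOD, and for regions under 1000 bp it was 4.68% in NOD. In a 500 bp window the GC box share was 24.0% in B6 and 38.8% in NOD. Of 48 alternatives to motif shares other than the GC box and to GC content, 15 moved. With exon numbers from RefSeq, 529 of 530 regions kept theirs.

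No paired analysis was possible because each strain and mark had 1 library. For the same reason no share has a replicate error, H3K27ac depth is unknown, and a difference in depth or library quality cannot be told apart from one between strains.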
